A study of Mus musculus with 48 samples.

Results

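The 10 genes described here encode the 2 interleukin-1 (IL-1) agonists Il1a and Il1b, their antagonist Il1rn and their receptor Il1r1, tumor necrosis factor (Tnf) and its receptors Tnfrsf1a and Tnfrsf1b, and the gp130 family members Lif, Osmr and Socs3. They were taken by name, with earlier results of these data known, as 10 of the 55357 genes of the count table. All 10 passed the count filter, but Il1b, Il1rn and Tnf did so through kainate libraries: a count of at least 10 was reached in 11, 10 and 9 of the 24 kainate libraries, against 1, 0 and 0 of the 24 saline libraries.

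Intrahippocampal kainate, a glutamate receptor agonist that starts status epilepticus, is a mouse model of temporal lobe epilepsy. RNA was measured in the dorsal dentate gyrus of wild-type C57BL/6J mice that received 1 unilateral injection of kainate or of saline, and tissue was taken 3, 7 or 14 days later, with 4 mice in each of the 6 groups (2 male and 2 female). The injected side is the epileptogenic zone (EZ) and the opposite side of the same mouse is the peri-ictal zone (PIZ), which gives 12 groups of 4 libraries and 48 libraries in all. The mice were 6 to 8 weeks old by the series record, while the published methods give an older range. Kainate mice were kept only if they had at least 1 seizure of the higher behavioural classes, and each library is the unpooled bulk tissue of 1 mouse and side. Library totals were 17762656 to 25712975 read pairs. Markers of granule cells, the principal neurons of the dentate gyrus, were present in every library, at a summed 305 to 1681 CPM (TMM-scaled read counts relative to library size) over 8 genes led by Prox1.

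In the brain IL-1 and TNF are made largely by microglia and infiltrating myeloid cells, and both act through NF-kB. IL-1 signals through Il1r1 with its accessory chain Il1rap, and Il1rn occupies the same receptor without activating it. Cytokines of the gp130 family, among them LIF and oncostatin M, pair a private chain (Lifr or Osmr) with the shared chain gp130 (Il6st) and activate JAK and STAT3, and Socs3 is a STAT3 target that feeds back on gp130.

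The genes lie on several chromosomes of GRCm39. The IL-1 ligands are neighbours on the minus strand, Il1a at chr2:129140291-129152098 and Il1b at chr2:129206490-129213059, and Il1rn is on the same chromosome at chr2:24226865-24241506. Il1r1 is at chr1:40264174-40356417, Tnf at chr17:35418357-35420983, Tnfrsf1a at chr6:125325566-125339632, Tnfrsf1b at chr4:144938938-144973477, Lif at chr11:4207557-4222514, Socs3 at chr11:117856905-117860898 and Osmr at chr15:6843053-6904450. Il1r1 and Tnfrsf1b each overlap a predicted gene on the same strand (Gm38070 and Gm68888), so reads there could be shared. Il1a, Il1b, Tnfrsf1a, Tnfrsf1b, Osmr and Socs3 overlap genes on the other strand, which the stranded counting keeps apart.

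Since 9 of the 10 genes rose together in EZ at day 7, the sequence before the RefSeq transcription start is shown for Il1b, Tnf, Il1rn and Lif, up to the first annotated exon base, and as a short stretch around the matches for Il1a, Tnfrsf1a and Socs3. The matches of these last 3 genes lie within annotated Gencode exons, since longer transcripts start further upstream: 206, 250 and 225 of the 250 bases before their RefSeq starts are exonic, as are all 250 for Osmr. The RefSeq windows, from a table of GRCm38.p6, were placed by exact match in GRCm39. Capitals mark the letters searched for on both strands in the 250 bases before each start: STAT (TTCNNNGAA), AP-1 (TGANTCA), the NF-kB consensus (by name) and TATAAA.
Il1b, chr2:129213060-129213309, - strand, 250 bases: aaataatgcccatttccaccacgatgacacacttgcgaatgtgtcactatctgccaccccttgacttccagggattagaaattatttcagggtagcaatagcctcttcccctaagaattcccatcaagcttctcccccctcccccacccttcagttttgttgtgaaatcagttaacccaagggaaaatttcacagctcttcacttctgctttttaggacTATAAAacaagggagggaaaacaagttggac
Tnf, chr17:35420984-35421233, - strand, 250 bases: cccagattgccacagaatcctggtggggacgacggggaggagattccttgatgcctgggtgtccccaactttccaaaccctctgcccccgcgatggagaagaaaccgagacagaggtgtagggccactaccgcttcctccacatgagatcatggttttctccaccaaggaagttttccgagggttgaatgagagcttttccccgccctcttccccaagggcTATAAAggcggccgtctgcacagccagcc
Il1rn, chr2:24226622-24226864, + strand, 243 bases: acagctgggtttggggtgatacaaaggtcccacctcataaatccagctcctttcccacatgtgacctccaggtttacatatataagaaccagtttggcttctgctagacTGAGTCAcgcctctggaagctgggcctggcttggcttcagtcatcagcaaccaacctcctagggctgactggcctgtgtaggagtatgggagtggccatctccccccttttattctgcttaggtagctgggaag
Lif, chr11:4207318-4207556, + strand, 239 bases: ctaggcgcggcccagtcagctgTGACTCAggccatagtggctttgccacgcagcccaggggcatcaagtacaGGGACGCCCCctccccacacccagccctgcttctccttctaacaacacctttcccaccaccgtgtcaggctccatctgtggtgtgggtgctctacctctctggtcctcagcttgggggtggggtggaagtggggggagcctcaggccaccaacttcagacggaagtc
Il1a, chr2:129151897-129151925, - strand, 29 bases: cTATAAAaaggcagagaagccTGACTCAg
Tnfrsf1a, chr6:125326436-125326460, + strand, 25 bases: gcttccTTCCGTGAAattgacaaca
Socs3, chr11:117860328-117860356, - strand, 29 bases: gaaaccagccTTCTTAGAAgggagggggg
Tnf and Il1b, together with Il1a, hold TATAAA from 29, 31 and 32 bases before the start, a motif found in 12.4% of all 32851 windows of this length. An AP-1 match lies 12 bases before the start in Il1a, 141 in Il1rn and 228 in Lif (6.75% of all windows), and Lif also holds a match to the NF-kB consensus (7.25%), as does the second of the windows of Il1r1. The STAT letters occur 154 bases before the start of Socs3, 181 before that of Tnfrsf1b and 244 before that of Tnfrsf1a (7.02%), and those of Socs3 and Tnfrsf1a are in exons, like both matches of Il1a. Osmr held none of the 4. No 2 matches overlap. These are letter matches and not measured binding sites.

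In saline tissue the receptors were the most abundant of the genes. Per kilobase of exon, the mean level in saline EZ at day 14 was 4.62 CPM for Il1r1, 3.33 for Tnfrsf1a, 0.975 for Tnfrsf1b and 0.566 for Osmr. The ligands Lif and Il1a and the feedback gene Socs3 lay close together at 0.210, 0.184 and 0.199 CPM per kilobase. Il1b (0.0525), Tnf (0.0152) and Il1rn (0.00204) rested on 11, 2 and 1 reads over the 4 mice. In kainate EZ at day 3 the order had changed. Tnfrsf1a led at 24.7 CPM per kilobase and Socs3 followed at 12.6. Tnfrsf1b (6.78), Il1r1 (5.64), Osmr (5.38) and Lif (3.55) came next, while Tnf (0.960), Il1a (0.627), Il1b (0.460) and Il1rn (0.286) were still below 1 CPM per kilobase.

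**Figure D1:**
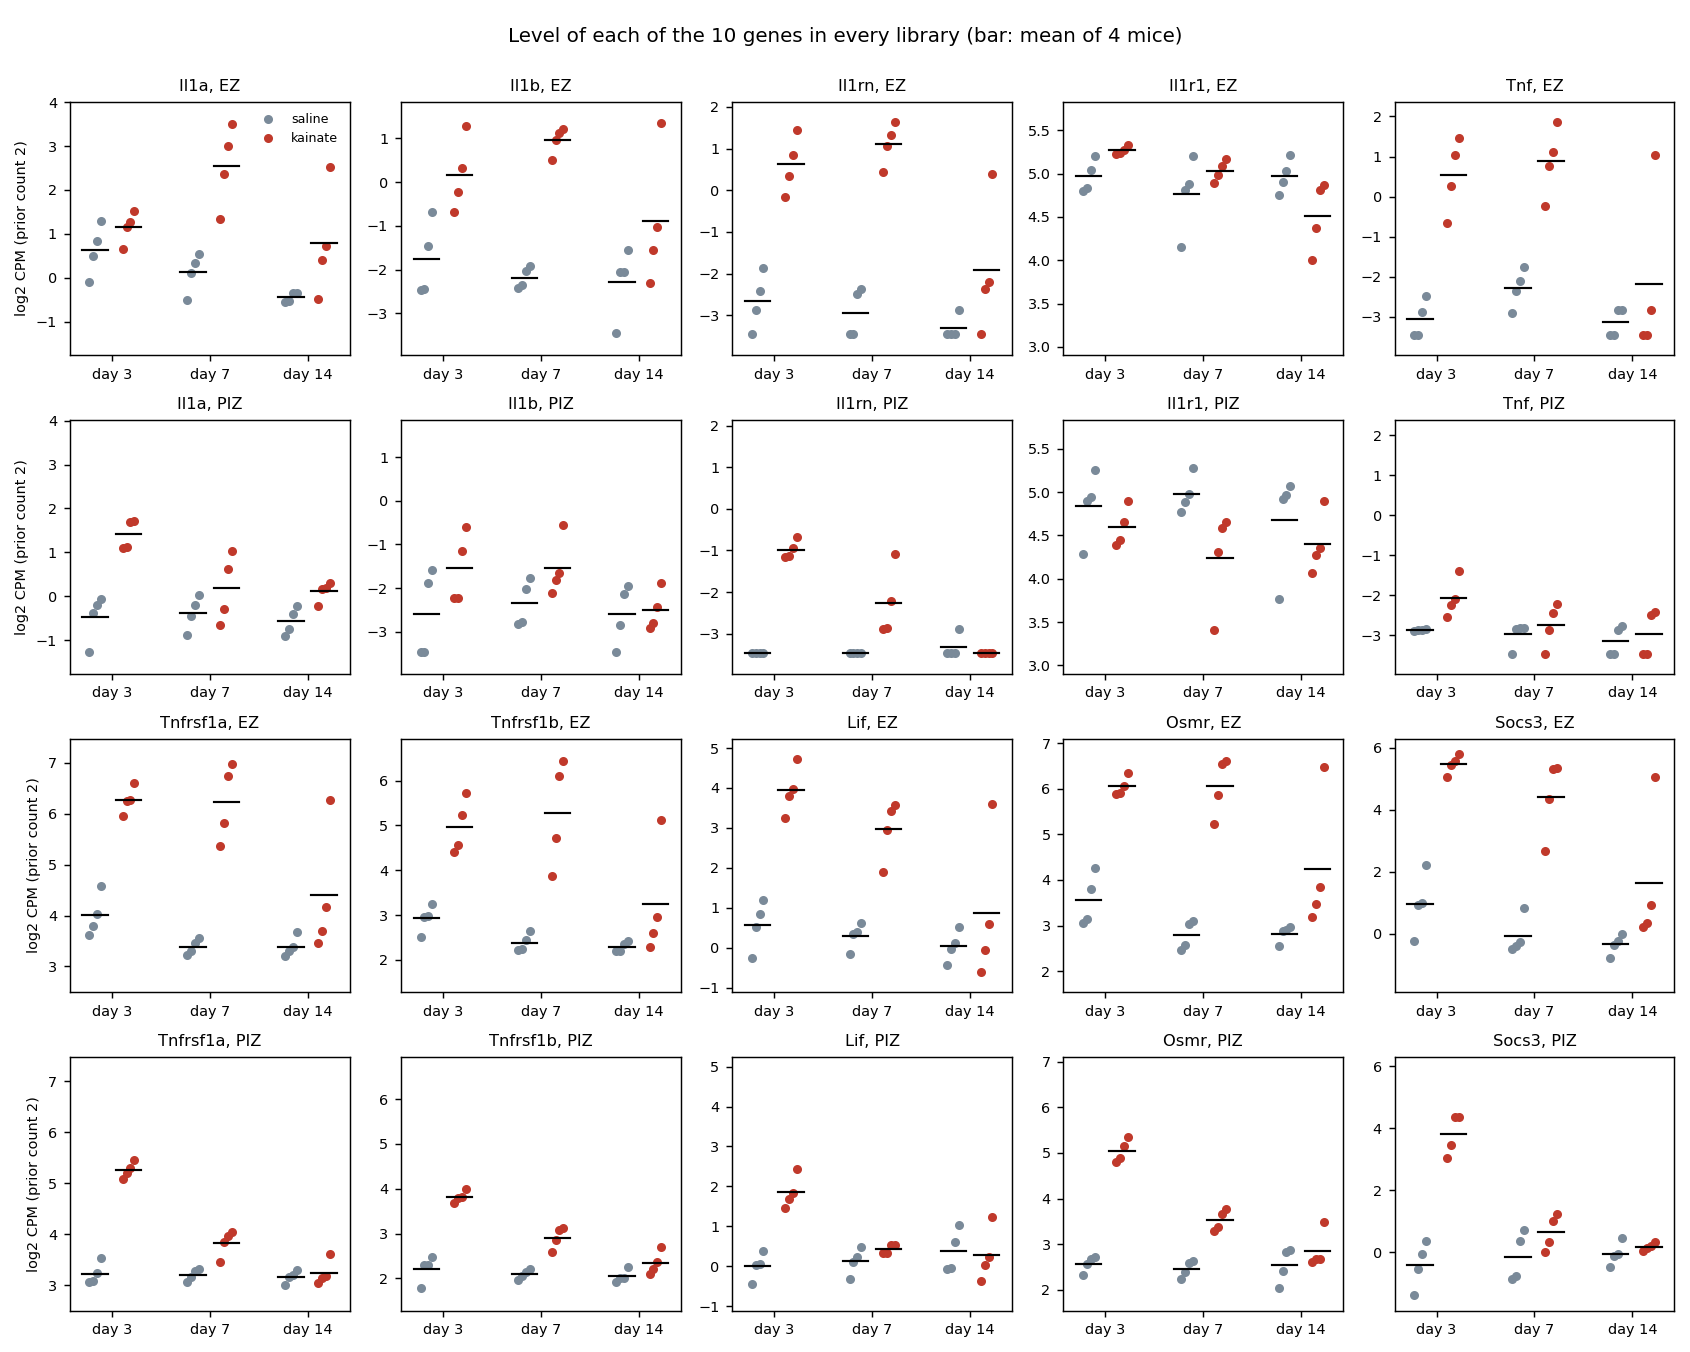
Level of each gene in every library, as log2 CPM with a prior count of 2 (y axis), by day (x axis), with EZ above PIZ for each gene, saline in grey, kainate in red, 1 point a mouse and a bar at the mean of 4 mice. The kainate points of Socs3, Osmr and Tnfrsf1a lie above the saline points on both sides at day 3, and at day 14 a single kainate mouse stands above the other 3 in EZ.

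To ask which genes differed after kainate in each zone and day, kainate and saline groups were compared with edgeR's quasi-likelihood test over 21390 genes, and calls required p below 0.01 after Benjamini-Hochberg adjustment and more than a 1.5-fold difference. In EZ 8 of the 10 genes rose at day 3, where 16.1% of all genes were called higher, 9 rose at day 7 (20.6% of all genes) and 3 at day 14 (2.32%). In PIZ 7 rose at day 3 (7.12%) and none were called at day 7 (0.15%) or day 14 (0.00935%). None fell in any of these comparisons. Every kainate mouse lay above every saline mouse for 8, 9 and 2 of the 10 genes in EZ at days 3, 7 and 14. This held for 23.9%, 23.7% and 4.58% of all genes. In PIZ it was 8, 4 and 1 of the 10, against 17.1%, 7.63% and 3.7%. Il1b, Il1rn and Tnf, which passed the filter through kainate libraries, are among the EZ calls of days 3 and 7. Il1rn is also among the PIZ calls of day 3. The other EZ calls were Tnfrsf1a, Tnfrsf1b, Lif, Osmr and Socs3 at both of those days and Il1a at day 7. Counts and medians over the 10 genes are thus descriptions. In bulk tissue, more cells of a type and more RNA per cell cannot be told apart. The median log2 fold change over the 10 genes was 2.35, 3.30 and 2.04 at the 3 times in EZ and 1.97 and 0.75 at days 3 and 7 in PIZ. At day 14 in PIZ it was 0.21 over the 9 genes with more than 3 reads in at least 1 of the groups. The median over all genes tested was at most 0.03 in each comparison. By unadjusted p under 0.05, 3 of the genes (Il1rn, Il1r1 and Osmr) passed in PIZ at day 7 (14.5% of all genes) and none at day 14 (5.97%), and DESeq2 called none at either time.

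**Figure D2:**
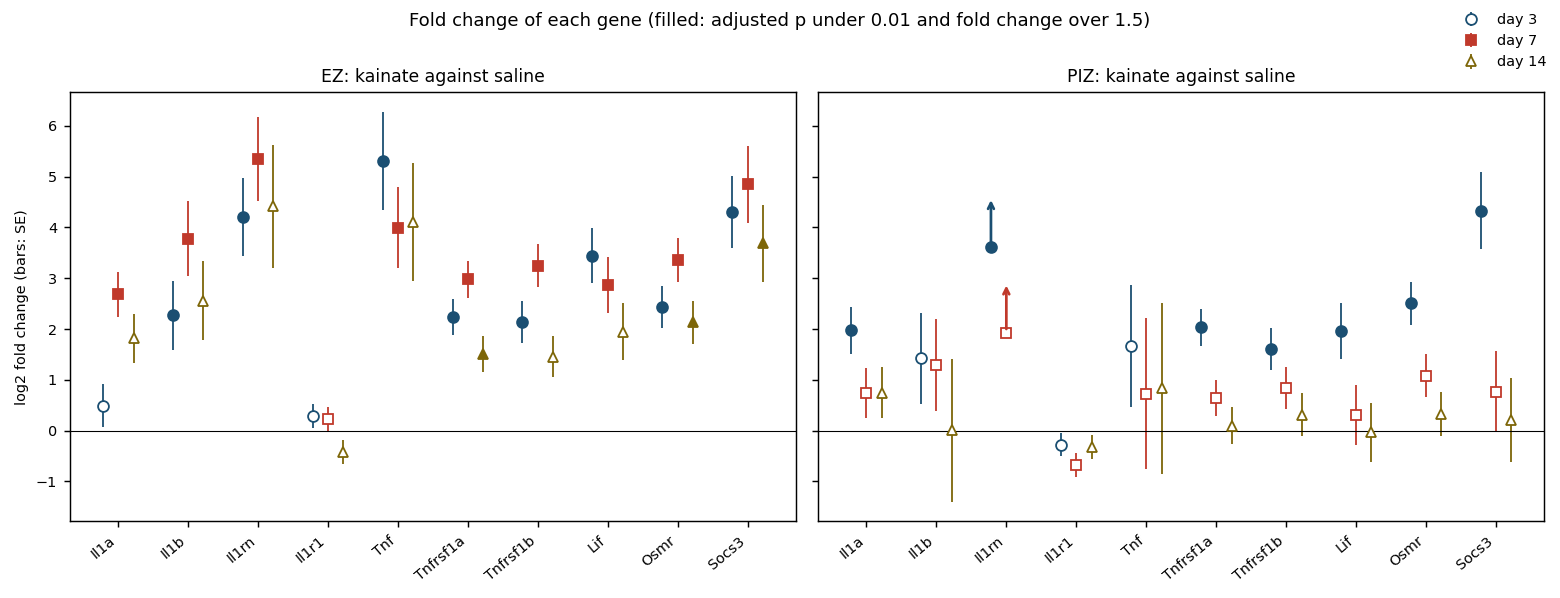
Log2 fold change of kainate against saline (y axis, bars SE) for each gene (x axis) in EZ (left) and PIZ (right), with circles for day 3, squares for day 7 and triangles for day 14, and filled symbols for calls. Arrows mark lower bounds for Il1rn in PIZ, where saline had no reads, and Il1rn at day 14 in PIZ is not drawn. Il1r1 lies between -0.68 and 0.29 in the 6 comparisons, and no symbol is filled in PIZ at days 7 and 14.

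Both TNF receptors rose in EZ at days 3 and 7. In EZ at day 3, Tnfrsf1a, the broadly expressed death-domain receptor, measured 12.2, 23.9, 13.8 and 16.2 CPM in the saline mice and 76.1, 96.6, 76.9 and 61.6 CPM in the kainate mice. No kainate value was near the saline range, and the gene rose by 2.24 on the log2 scale (SE 0.35, adjusted p = 4.18e-06). At day 7 saline stayed at 9.23 to 11.8 CPM and kainate reached 125, 40.9, 55.9 and 107 CPM (log2 fold change 2.98, SE 0.37, adjusted p = 4.27e-08). Tnfrsf1b, the receptor enriched on microglia and immune cells, went from 7.63 ± 1.54 to 33.6 ± 14.5 CPM at day 3 (SD, n = 4 mice each) and from 5.17 ± 0.744 to 49.0 ± 34.1 CPM at day 7. It rose by 2.14 (SE 0.41, adjusted p = 5.41e-05) at the earlier and by 3.25 (SE 0.43, adjusted p = 9.86e-08) at the later time. The wide spread at day 7 came from mice 21 and 35, at 86.3 and 68.7 CPM, against 14.5 and 26.3 CPM in mice 23 and 26.

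In PIZ both receptors rose at day 3 and lay closer to saline at day 7. Tnfrsf1a was 8.22, 11.5, 9.36 and 8.34 CPM in saline and 43.5, 33.6, 38.98 and 36.8 CPM in kainate, a log2 rise of 2.03 (SE 0.36, adjusted p = 8.17e-05). Tnfrsf1b rose by 1.61 on the same scale (SE 0.41, adjusted p = 0.00414), a call that was lost without mouse 18, 30, 37 or 41 (adjusted p = 0.0117 to 0.021). At day 7 the kainate means were 14.2 ± 2.39 CPM for Tnfrsf1a against 9.15 ± 0.752 CPM, and 7.51 ± 1.22 against 4.19 ± 0.290 CPM for Tnfrsf1b (SD, n = 4). All 4 kainate mice lay above all 4 saline mice for both, as for 7.63% of all genes, and neither passed the threshold (adjusted p = 0.412 and 0.35).

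Tnf itself had at most 4 reads in any saline library and at most 7 in any PIZ library. The reads per mouse in EZ were 2, 1, 0 and 0 in saline against 29, 70, 54 and 13 in kainate at day 3, and 4, 1, 2 and 3 against 91, 15, 41 and 50 at day 7. Both groups are separate at both days, as for 23.9% and 23.7% of all genes with kainate higher. In depth-scaled reads summed over the 4 mice, kainate exceeded saline 46.5-fold at day 3 (95% counting interval 15.6 to 228) and 17.3-fold at day 7 (9.20 to 36.6), intervals that cover counting error alone. The adjusted p were 3.1e-05 and 6.2e-05. In PIZ the kainate mice held 7, 3, 3 and 2 reads at day 3 against 1 in each saline mouse, and the gene was not called (log2 fold change 1.66, SE 1.202, adjusted p = 0.333).

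Among the IL-1 genes the antagonist had the largest log2 fold change in EZ at days 3 and 7. Il1rn had 0, 1, 4 and 2 reads in saline EZ at day 3 and 21, 69, 47 and 28 in kainate, and 0, 2, 2 and 0 against 62, 25, 77 and 48 at day 7. The groups did not overlap, as for 23.9% and 23.7% of all genes with kainate higher. The count ratios were 19.8 (95% counting interval 9.40 to 50.1) and 46.5 (17.9 to 172). The adjusted p were 5.75e-05 and 3.49e-06. In PIZ no read of Il1rn was found in any of the saline mice at day 3, while the kainate mice had 13, 9, 9 and 9, so that the level was at least 12.2-fold higher than the 3 reads that a count of 0 over the group allows (adjusted p = 0.00199). At day 7 the kainate mice held 1, 1, 3 and 8 reads against none, at least 3.81-fold higher and not called (adjusted p = 0.186). By day 14 none of the 4 kainate PIZ libraries held a read.

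Il1b, the IL-1 agonist that caspase-1 matures, rose in EZ and was not called in PIZ. Its reads were 2, 6, 2 and 11 in saline and 14, 61, 32 and 18 in kainate at day 3, and it rose by 2.28 (SE 0.68, adjusted p = 0.00568). Scaled to depth, the highest saline and the lowest kainate mouse were both at 0.536 CPM. It was the one EZ call of day 3 that was lost when a single mouse was left out. Without kainate mouse 38 the adjusted p was 0.0505, without mouse 42 it was 0.0101, and without saline mouse 18, 29 or 37 it was 0.0247, 0.013 and 0.0242. It was also lost when the 8 compared libraries were fitted alone (adjusted p = 0.015). At day 7 the reads were 3, 4, 2 and 2 in saline against 53, 26, 48 and 54 in kainate (log2 fold change 3.78, SE 0.74, adjusted p = 4.5e-05). In PIZ the 4 kainate mice summed to 27 reads at day 3 against 9, and overlapped saline (adjusted p = 0.255).

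Il1a, the other agonist, was called in PIZ and not in EZ at day 3. In EZ at day 3 it measured 0.839, 2.34, 1.71 and 1.32 CPM in saline and 1.49, 2.33, 2.14 and 2.78 CPM in kainate, overlapping groups whose log2 difference was 0.49 (SE 0.43, adjusted p = 0.358). In PIZ at the same time saline was lower, at 0.325 to 0.867 CPM, and kainate reached 3.15, 2.10, 3.20 and 2.04 CPM, so that the gene rose by 1.97 (SE 0.47, adjusted p = 0.00197), a call lost without saline mouse 18 (adjusted p = 0.0125). The difference between the 2 zones in its kainate effect was -1.48 on the log2 scale (SE 0.63), with an unadjusted p of 0.0246 and an adjusted p of 0.214. At day 7 Il1a rose in EZ, from 1.03 ± 0.321 to 6.69 ± 3.82 CPM (SD, n = 4), by 2.69 (SE 0.44, adjusted p = 3.8e-06). In PIZ it was 0.702 ± 0.203 CPM in saline and 1.17 ± 0.659 CPM in kainate at that time.

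Il1r1, the receptor that both agonists share, was not called in any of the 6 comparisons. It was expressed at 27.1 to 31.7 CPM on average in the saline groups and at 19.8 to 38.4 CPM in the kainate groups. In EZ at day 3 the kainate mice measured 37.3, 40.1, 38.6 and 37.8 CPM. They lay above the saline mice at 27.8, 32.9, 28.5 and 36.7 CPM, as for 23.9% of all genes. The log2 difference was 0.29 (SE 0.23, adjusted p = 0.318). In PIZ at day 7 the order was the opposite, with kainate at 10.5, 23.8, 19.7 and 25.1 CPM below saline at 27.3, 38.6, 31.3 and 29.5 CPM, a log2 difference of -0.68 (SE 0.24, adjusted p = 0.146). Granule cell markers there summed to 567 to 1162 CPM in kainate against 1330 to 1599 CPM in saline, and mouse 21, the lowest in Il1r1, was also the lowest in those markers and the highest in meningeal and fibroblast markers (126 CPM against 40.2 to 53.1 CPM in the other 3). Their part in the Il1r1 values was not tested.

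The gp130 genes moved on both sides at day 3. Socs3 measured 0.750, 4.59, 1.89 and 1.80 CPM in saline EZ and 33.1, 55.1, 43.4 and 47.5 CPM in kainate EZ, and rose by 4.31 (SE 0.70, adjusted p = 6.66e-06). In PIZ it went from 0.603, 0.292, 0.867 and 1.18 CPM to 20.6, 8.16, 10.9 and 20.3 CPM, a rise of 4.33 (SE 0.76, adjusted p = 7.9e-05). The 2 rises differed by -0.02 on the log2 scale (SE 0.75, adjusted p = 0.991). At day 7 Socs3 in EZ was 40.7, 6.22, 20.1 and 39.5 CPM against 0.612 to 1.70 CPM (log2 fold change 4.85, SE 0.76, adjusted p = 1.56e-06), while in PIZ it was 0.905, 1.17, 2.26 and 1.92 CPM against 0.453 to 1.56 CPM. The PIZ groups overlapped and the log2 difference of 0.76 (SE 0.80) was not called (adjusted p = 0.707).

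Osmr, the private chain of the oncostatin M receptor, rose by 2.43 in EZ (SE 0.41, adjusted p = 1.24e-05) and by 2.51 in PIZ (SE 0.43, adjusted p = 5.18e-05) at day 3. Its EZ levels were 8.17, 19.0, 8.72 and 13.8 CPM in saline and 67.0, 81.0, 59.9 and 59.0 CPM in kainate. In PIZ saline was 4.94 to 6.46 CPM and kainate 27.9 to 40.6 CPM, so the groups were far apart on both sides. At day 7 EZ kainate stood at 71.2 ± 28.6 CPM against 6.96 ± 1.56 CPM (SD, n = 4) and the rise was 3.35 (SE 0.43, adjusted p = 7.64e-08). In PIZ the kainate mice at 10.3, 9.68, 12.5 and 13.6 CPM lay above the saline mice at 5.15, 6.10, 5.92 and 4.61 CPM, as for 7.63% of all genes. The log2 difference of 1.08 (SE 0.42) was not called (adjusted p = 0.211) but was when only these 8 libraries were fitted (adjusted p = 0.00616).

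Lif, the ligand that acts through Lifr and gp130, rose in both zones at day 3. In EZ it measured 0.750, 2.21, 1.34 and 1.71 CPM in saline and 13.8, 26.5, 15.5 and 9.47 CPM in kainate. In PIZ saline lay between 0.638 and 1.21 CPM, and the kainate mice were at 5.32, 3.11, 3.48 and 2.64 CPM. The groups were separate in both zones, as for 23.9% of all genes in EZ and 17.1% in PIZ with kainate higher. On the log2 scale Lif rose by 3.44 in EZ (SE 0.54, adjusted p = 4.07e-06) and by 1.96 in PIZ (SE 0.56, adjusted p = 0.00934), and the difference of 1.48 (SE 0.77) did not pass (adjusted p = 0.303). The PIZ call of Lif was lost when any single mouse was left out, with adjusted p of 0.0112 to 0.0402. Without saline mouse 18, where Tnfrsf1b and Il1a lost theirs too, 4 of the 10 genes were called there. At day 7 Lif was higher in EZ, at 7.60, 3.62, 10.6 and 11.9 CPM against 0.8004 to 1.44 CPM (log2 fold change 2.87, SE 0.55, adjusted p = 3.39e-05).

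To ask whether the 2 zones differed in their response, the kainate effect in EZ was compared with that in PIZ of the same day. None of the 10 genes differed at day 3 (edgeR, 0.0374% of all genes called higher in EZ) nor at day 14 (0%). At day 3, Il1a alone of the 10 had an unadjusted p under 0.05, against 17.9% of all genes, and at day 14 there were 4 (Tnfrsf1a, Lif, Osmr and Socs3), against 7.3%. This fit left out the pairing of sides. With mouse as a replicate block in edgeR, Il1a, Tnf and Lif passed at day 3 (unadjusted p = 0.0371, 0.0329 and 0.0141). At day 14 Tnfrsf1a and Osmr did (0.036 and 0.0111), and Lif and Socs3 did not (0.0507 and 0.0546). No gene of the 10 was called at either day with the block. DESeq2 called none at either day. At day 7 the effect was larger in EZ for 4 genes, with 7% of all genes called. Socs3 differed by 4.09 (SE 1.10, adjusted p = 0.00719), Tnfrsf1b by 2.41 (SE 0.59, adjusted p = 0.00423), Tnfrsf1a by 2.35 (SE 0.50, adjusted p = 0.00224) and Osmr by 2.27 (SE 0.59, adjusted p = 0.006). With mouse as a replicate block, Lif (2.46, SE 0.58, adjusted p = 0.00515) and Il1r1 (1.002, SE 0.27, adjusted p = 0.00908) were called as well, 6 genes in all with 11% of all genes called in either direction. Without kainate mouse 21 or 35, or saline mouse 20 or 89, none of the 10 genes passed, without saline mouse 33 or 34 the count was 1, and without kainate mouse 23 or 26 it was 6 and 5. The share of all genes called was not counted for these fits.

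**Figure D3:**
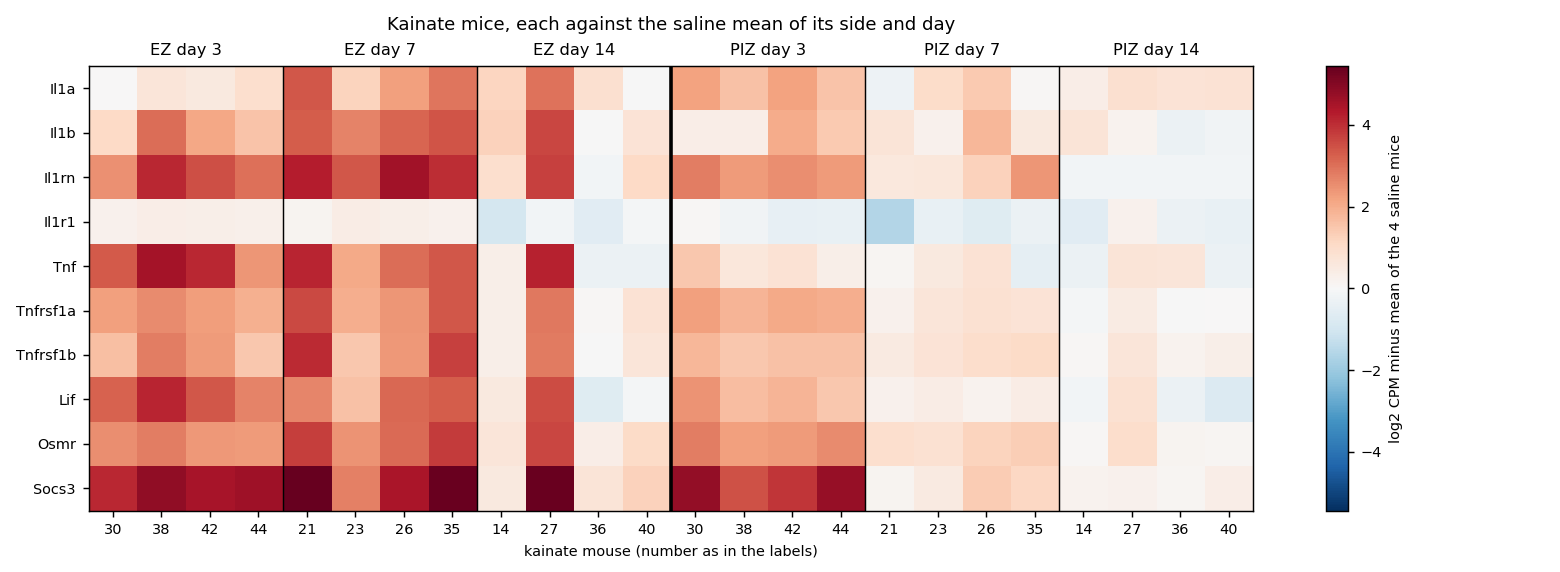
Log2 CPM of each kainate library minus the mean of the 4 saline libraries of its zone and day, with genes in rows and mice in columns (red higher, blue lower). Day 3 columns are mostly red in both zones, mouse 23 is the palest of the EZ day 7 columns, and mouse 27 is the only strongly red column at day 14.

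The kainate mice of day 7 differed among themselves. The median over the 10 genes of the difference from the saline mean was 3.66, 3.401, 3.05 and 2.01 on the log2 scale in the EZ of mice 21, 35, 26 and 23, and 0.23, 0.64, 1.09 and 0.57 in their PIZ. The mouse with the largest EZ difference, mouse 21, had the smallest in PIZ. Its PIZ library was also the lowest of the 4 in granule cell markers (567 CPM against 1006 to 1162 CPM) and in microglial markers (483 against 666 to 955 CPM). In meningeal and fibroblast markers it was the highest (126 against 40.2 to 53.1 CPM). The part of these cells was not tested. At day 3 the 4 mice lay between 2.13 and 2.92 in EZ and between 1.58 and 2.20 in PIZ.

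At day 14 the calls in EZ rested on 1 mouse. Kainate mouse 27 had a median difference of 3.59, against 0.55, -0.01 and 0.70 for mice 14, 36 and 40. Socs3 measured 32.7 CPM in mouse 27 and 1.06, 1.18 and 1.80 CPM in the others, with saline at 0.495 to 0.905 CPM. Osmr was 88.5 CPM against 10.99, 9.05 and 14.3 CPM, with saline at 5.79 to 7.69 CPM. Tnf had 43 reads against 1, 0 and 0. The 3 genes called in this comparison were Tnfrsf1a (log2 fold change 1.501, SE 0.35, adjusted p = 0.00672), Osmr (2.13, SE 0.42, adjusted p = 0.00171) and Socs3 (3.69, SE 0.76, adjusted p = 0.00254). Without mouse 27 they were 0.41, 0.71 and 0.93 with adjusted p of 1, 0.621 and 1, and none of the 10 genes was called. Fitted on the 8 compared libraries alone, all 3 calls were lost at similar folds (adjusted p = 0.56 for each), while DESeq2 called 6 genes. Osmr and Socs3 in the other 3 kainate mice still lay above all 4 saline mice. They were the 2 of the 10 genes whose full groups did not overlap, as for 4.58% of all genes with kainate higher. All 10 genes but Il1r1 had an unadjusted p under 0.05 in the full comparison, against 18% of all genes. The call count also moved when other mice were left out, to 8, 6 and 5 without kainate mouse 36, 40 or 14, to 1 without saline mouse 28 and to none without saline mouse 24, 31 or 39. Without mouse 27, 0.0323% of all genes were called higher. For the other alternative fits and DESeq2 that share was not counted. In PIZ mouse 27 had the highest Osmr (11.1 CPM against 5.98 to 6.28 CPM), Tnfrsf1a (12.1 against 8.16 to 8.98 CPM) and Lif (2.25 against 0.683 to 1.09 CPM), while its Socs3 was 1.05 CPM, within the range of the other 3.

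Changes of the kainate effect between days were not called for any of the 10 genes by edgeR or DESeq2. In EZ from day 3 to day 7, where 0.145% of all genes were called, 1 gene had an unadjusted p under 0.05 (12% of all genes), Il1a, whose effect grew by 2.20 (SE 0.61, adjusted p = 0.09). From day 7 to day 14 in EZ (0.271% called) there were 3, Tnfrsf1a (-1.48), Tnfrsf1b (-1.79) and Osmr (-1.22), with adjusted p of 0.0393, 0.0347 and 0.134. The share of all genes at that unadjusted threshold was 33.1%, so 3 of 10 was near the background. Leaving out mouse 27, 5 genes were called in that comparison, and leaving out mouse 23, 1 was. For these fits and others in this paragraph on fewer libraries, the share of all genes called was not counted. In PIZ from day 3 to day 7 (0.0234% called) 4 genes had an unadjusted p under 0.05, against 10.6% of all genes, namely Socs3 (-3.56, SE 1.11, adjusted p = 0.198), Lif (-1.66), Osmr (-1.42) and Tnfrsf1a (-1.40), and 3 were called when only those groups were fitted. From day 7 to day 14 in PIZ (0% called) there were none, against 3.08% of all genes.

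The saline mice show the injected side without kainate. At day 3 the injected side of the saline mice exceeded their other side for 5 genes at an unadjusted p under 0.05, a threshold that 6.17% of all genes passed in either direction, and none was called by edgeR or DESeq2 (0.0281% of all genes called). Osmr was 8.17, 19.0, 8.72 and 13.8 CPM on the injected side of mice 18, 29, 37 and 41, and 5.80, 6.46, 4.94 and 6.29 CPM on the other, a log2 difference of 1.08 (SE 0.42, adjusted p = 0.615). Socs3 differed by 1.5997 (SE 0.78, adjusted p = 0.81), Il1a by 1.22 (SE 0.48, adjusted p = 0.617) and Tnfrsf1a by 0.82 (SE 0.35, adjusted p = 0.695). Il1rn had 7 reads on the injected side and none on the other. Mouse 29 was the highest of the 4 on the injected side for Osmr, Socs3, Tnfrsf1a, Tnfrsf1b, Lif and Il1a. It was also the highest there in the sums of microglial and astrocyte markers. Microglial markers summed to 601 to 1054 CPM on the injected side and 347 to 476 CPM on the other (0 of 10 called). Astrocyte markers summed to 6092 to 8934 and 4278 to 5743 CPM (1 of 8 called). Their part in these values was not tested. At days 7 and 14 (0% called on each) none of the 10 passed an unadjusted p of 0.05, against 1.52% and 2.42% of all genes. Between saline EZ at day 3 and at day 14 (0% called), 2 genes did, against 5.78% of all genes, Il1a (1.27, SE 0.48, adjusted p = 0.671) and Socs3 (1.66, SE 0.79, adjusted p = 0.846), and DESeq2 called none. The 2 saline sides did not overlap for Osmr, Tnfrsf1a and Tnfrsf1b (injected side higher, as for 5.16% of all genes) and overlapped for Il1a, Il1rn and Socs3. The part of the saline values in the EZ and PIZ fold changes was not tested.

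The other genes of the pathways were read from lists chosen by function. Over all genes, 16.1%, 20.6% and 2.32% were called higher in EZ at days 3, 7 and 14 and 7.12% in PIZ at day 3, and 8.61%, 11.9% and 1.57% lower in EZ at days 3 and 7 and in PIZ at day 3, which is the background for the counts of list genes. The 10 pathway genes called at day 14 in EZ, 1 IL-1, 2 TNF, 1 gp130, 1 NF-kB feedback and 5 STAT3 response genes, each lost the call without mouse 27 (edgeR, 0.0323% of all genes then called higher). Of the 18 tested genes of the IL-1 family list, 10 rose in EZ at day 3, 13 at day 7 and 1 at day 14, near the background, and 6 rose in PIZ at day 3. Il1r2, the decoy receptor, rose by 2.57 and 2.40 in EZ at days 3 and 7 and by 2.40 in PIZ at day 3 (adjusted p = 1.32e-05, 2.52e-05 and 0.000783). Casp1, the protease that matures IL-1 beta, rose by 2.14, 3.35 and 1.94 in the same order, and Myd88, the adaptor of the receptor, by 1.501, 1.96 and 0.98. Il33, an alarmin of glia, rose in EZ at all 3 times (1.48, 1.57 and 1.22) and was not called in PIZ. At day 14 it was at 0.87 without mouse 27 (adjusted p = 0.421), and its EZ and PIZ effects differed by 1.11, 1.09 and 1.04 at the 3 times, which did not pass (adjusted p = 0.134, 0.033 and 0.546). The accessory chain Il1rap, like Il1r1, was not called in the 6 comparisons, with log2 differences of 0.06 in EZ and -0.49 in PIZ at day 3 and -0.71 in PIZ at day 7 (adjusted p = 0.0216). Il18 was at 0.42 in EZ at day 7 (adjusted p = 0.000775), under the fold threshold.

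Of 19 tested genes of the TNF list, 12 rose in EZ at day 3 and 12 at day 7, 2 at day 14, and 6 in PIZ at day 3. Adam17, the enzyme that sheds TNF from the cell surface, rose by 1.17 and 1.85 in EZ and by 0.86 in PIZ at day 3. Nfkb2, a subunit of the non-canonical NF-kB pathway, rose in EZ at all 3 days (1.91, 3.05 and 1.599, the last at 0.65 without mouse 27, adjusted p = 0.74) and in PIZ at day 3 (1.18). Traf1 and Birc3, which NF-kB induces downstream of TNF receptors, rose in EZ at day 3 (1.496 and 1.34) and day 7 (3.02 and 2.26). In PIZ at day 3 Traf1 was at 1.54 (adjusted p = 0.0109) and Birc3 at 0.91 (adjusted p = 0.0293), short of the threshold. Of 9 NF-kB feedback genes, 4 rose in EZ at day 3, 5 at day 7 and 1 at day 14, and 1 rose in PIZ at day 3. Bcl3, an NF-kB cofactor that was among the genes most like Socs3, was the one called at day 14 (3.58, and 1.44 without mouse 27, adjusted p = 0.916) and in PIZ (4.22), and is named after its values were seen. Nfkbia, the inhibitor IkB alpha, rose by 0.70 and 1.29 in EZ, and Tnfaip3 (A20) by 1.24 at day 7 after 0.41 at day 3 (adjusted p = 0.24). Cyld, a deubiquitinase that restrains NF-kB, fell by 0.89 and 0.93 in EZ at days 3 and 7.

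**Figure D4:**
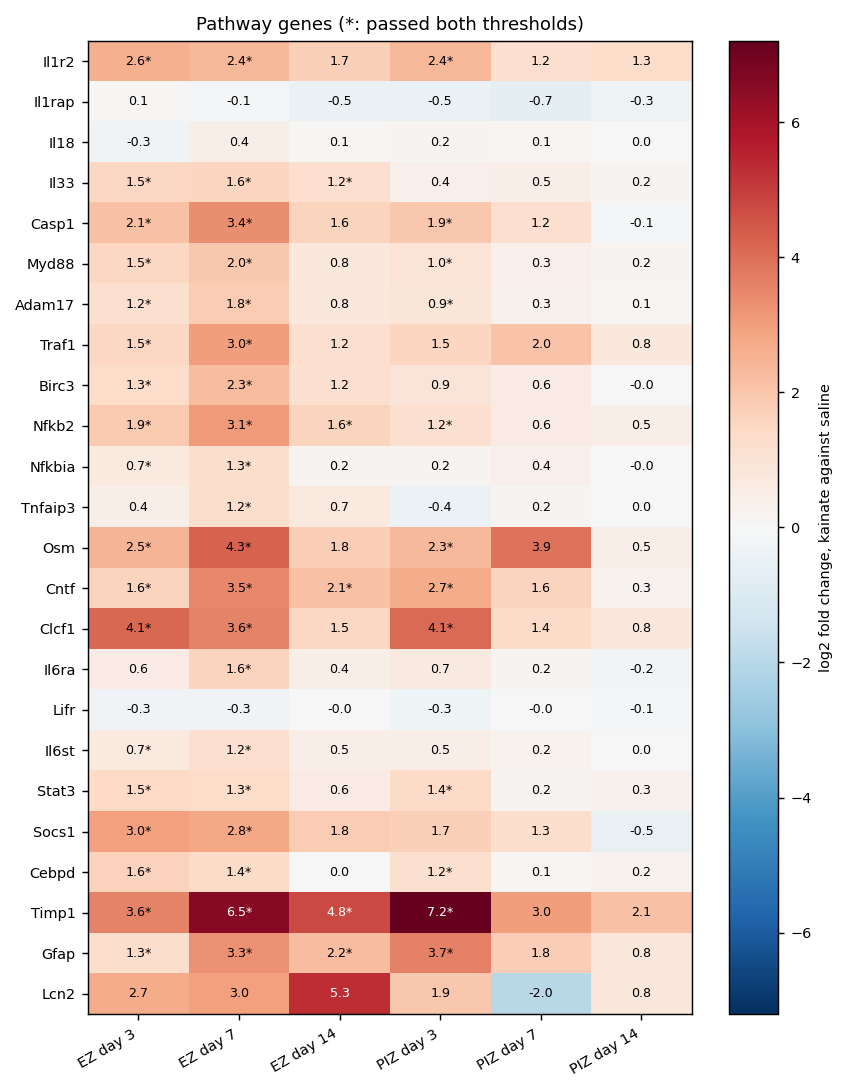
Log2 fold change of kainate against saline for the pathway genes named by role (rows) in each zone and day (columns), with an asterisk where both thresholds were passed. Most rows are red in EZ at days 3 and 7 and in PIZ at day 3, while Il1rap, Il18 and Lifr stay pale.

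Of 17 tested genes of the gp130 list, 7 rose and 1 fell in EZ at day 3, 8 rose at day 7 and 1 at day 14, the counts of 1 being near the background, and 5 rose in PIZ at day 3. Among the ligands, Clcf1 (cardiotrophin-like cytokine) went from 1.96 ± 1.12 to 34.7 ± 15.8 CPM in EZ and from 0.816 ± 0.103 to 13.7 ± 6.21 CPM in PIZ at day 3 (SD, n = 4), rises of 4.14 and 4.06 on the log2 scale. Osm, which encodes the ligand of Osmr, rose by 2.46 in EZ and 2.34 in PIZ at day 3 and by 4.26 in EZ at day 7. In PIZ at day 7 it was at 3.89 with an SE of 0.97 (adjusted p = 0.0287), which did not pass. Cntf rose by 1.63, 3.48 and 2.13 in EZ over the 3 days, the last at 1.03 without mouse 27 (adjusted p = 0.51), and by 2.66 in PIZ at day 3. Il6 did not pass the filter and stayed between 0 and 0.230 CPM in every library. Of the receptors, Il6st (gp130) rose by 0.71 and 1.23 in EZ at days 3 and 7 and Il6ra by 1.597 at day 7, whereas Lifr was at -0.28 and -0.26 at those times (adjusted p = 0.124 and 0.129). Stat3 rose by 1.46 and 1.33 in EZ at days 3 and 7 and by 1.41 in PIZ at day 3.

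Genes known to respond to STAT3, with the other SOCS genes, included 12 of 15 higher in EZ at day 3, 11 at day 7 and 5 at day 14, and 9 in PIZ at day 3. Timp1, a metalloproteinase inhibitor made by reactive astrocytes, went from 6.37 ± 5.44 to 75.2 ± 29.5 CPM in EZ and from 0.117 ± 0.0643 to 17.8 ± 6.10 CPM in PIZ at day 3 (SD, n = 4). The log2 rises were 3.56 and 7.20. Timp1 also differed between the saline sides at day 3, by 5.72 (SE 0.998, adjusted p = 0.00615). Gfap, the astrocyte filament, rose by 1.28 in EZ and 3.65 in PIZ at day 3 and by 3.31 in EZ at day 7, and its saline sides differed by 2.62 at day 3 (SE 0.42, adjusted p = 0.00214). Socs1 rose by 2.96 in EZ and Cebpd by 1.64 in EZ and 1.17 in PIZ at day 3. Lcn2 was at 2.67, 2.98 and 5.32 in EZ over the 3 days with SE of 1.13, 1.16 and 1.69, and did not pass (adjusted p = 0.048, 0.0274 and 0.0564). The median log2 fold change of this list in PIZ was 0.70 at day 7 and 0.42 at day 14, after 1.72 at day 3.

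When EZ and PIZ effects were compared at day 7, 6 of 18 IL-1 family genes, 8 of 19 TNF genes, 4 of 17 gp130 genes, 2 of 15 STAT3 response genes and 0 of 9 NF-kB feedback genes were called with a larger effect in EZ, where 7% of all genes were. They included Myd88 (1.61), Nlrp3 (2.55), Casp8 (2.13), Nfkb2 (2.44), Stat3 (1.15) and Il6st (1.01). Of the NF-kB feedback genes, Cyld differed by -0.71, the other way.

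Markers of other cells moved with these genes. The 10 microglial markers, Csf1r among them, summed to 601 to 1054 CPM in saline EZ at day 3 and 1722 to 3072 CPM in kainate EZ, and 9 of them rose. P2ry12, a marker of resting microglia, did not (-0.26, adjusted p = 0.344). At day 7 all 10 rose and the sums were 510 to 561 against 2094 to 7978 CPM, with mouse 21 highest and mouse 23 lowest. Il1a, Tnf, Tnfrsf1a, Tnfrsf1b and Socs3 had the same 2 ends. Mouse 35 was highest for Il1b, Lif and Osmr and mouse 26 for Il1rn, each with mouse 23 lowest. For Il1r1 mouse 23 was highest and mouse 21 lowest. At day 14 mouse 27 was at 3950 CPM and the other 3 at 590 to 914 CPM, with saline at 467 to 491 CPM. In PIZ the sums were 347 to 476 against 1175 to 1450 CPM at day 3, where all 10 rose, and 367 to 466 against 483 to 955 CPM at day 7, where the median log2 fold change of the list was 0.82. The part of microglial number in the cytokine results was not tested.

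**Figure D5:**
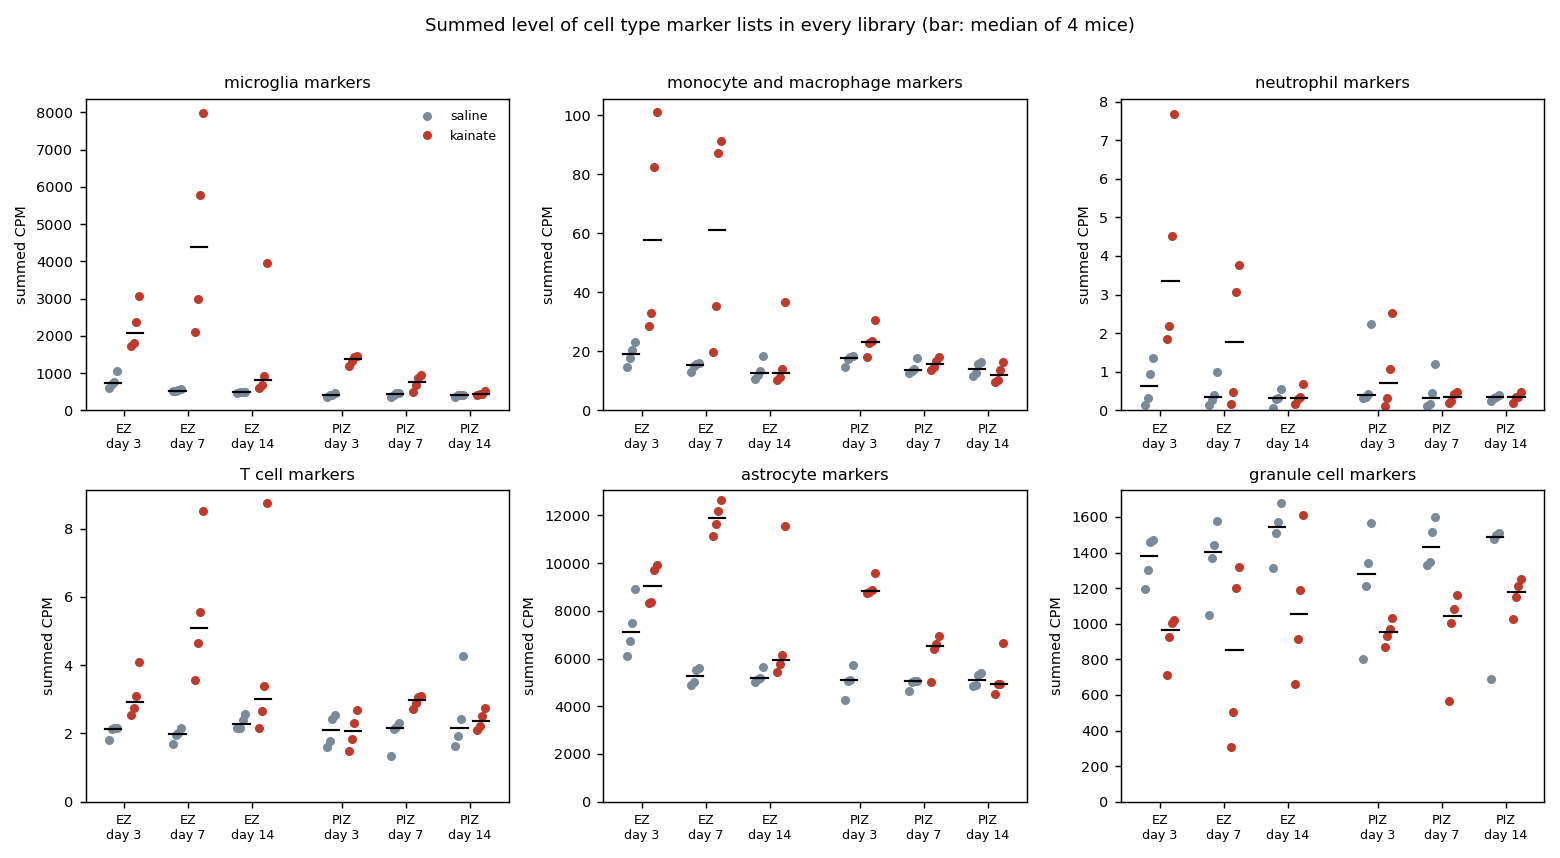
Summed CPM of marker lists of 6 cell types (y axis, from 0) in each library, by zone and day (x axis), saline in grey, kainate in red, bar at the median of 4 mice. Microglial sums rise in kainate EZ and in PIZ at day 3, mouse 27 is the high point at day 14, and neutrophil and T cell sums stay below 9 CPM.

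Blood cell markers were at low levels, and some of them moved with the cytokine genes. The 8 monocyte and macrophage markers summed to 14.7 to 23.1 CPM in saline EZ and 28.7 to 101 CPM in kainate EZ at day 3 and to 19.7 to 91.1 CPM in kainate at day 7, with 4 and 5 called higher, among them Ms4a7 (4.72 and 5.74), a marker also of activated microglia. Neutrophil markers summed to at most 7.69 CPM in any library and 6 of the 9 did not pass the filter. Ngp, Camp and Ly6g had no read in saline EZ at day 3, and Ngp had none in kainate EZ at that time either. Of the 3 tested, Mmp8 rose in EZ at days 3 and 7 (5.75 and 5.94). T cell markers summed to 8.75 CPM at most, in mouse 27, and of the 4 tested, Cd4 and Trbc2 rose in EZ at day 7 (4.01 and 4.36). Astrocyte markers, led by Slc1a2 and Gfap, summed to 6092 to 8934 CPM in saline and 8308 to 9922 CPM in kainate EZ at day 3, to 4901 to 5604 against 11128 to 12630 CPM at day 7, and to 4278 to 5743 against 8732 to 9605 CPM in PIZ at day 3. Of the 8, Gfap, Aqp4 and Aldh1l1 rose in EZ and PIZ at day 3 while Slc1a2 fell in EZ (-0.95), and 5 rose in EZ at day 7, with list medians of 0.13, 0.32 and 0.79 on the log2 scale. Granule cell markers summed to 1196 to 1468 CPM in saline and 713 to 1024 CPM in kainate EZ at day 3, where 2 of 8 fell, among them Calb1 (8.61% of all genes fell). At day 7 in EZ 3 of 8 fell (11.9% of all genes) and in PIZ at day 3 Calb1 alone did, and the medians of the list were -0.87, -1.05 and -0.32 on the log2 scale. The sums were lowest in mouse 21 (305 CPM) and mouse 35 (502 CPM) at day 7, the mice with the highest microglial sums, against 1199.8 and 1321 CPM in mice 26 and 23. Choroid plexus markers were at 19.1 to 23.9 CPM in saline and 7.69 to 10.5 CPM in kainate EZ at day 3, and 1 of the 4 tested, Kl, fell at days 3 and 7. Kl led this list, at a mean of 17.0 CPM over all libraries. Sostdc1 was at 2.18 CPM, Ttr at 0.836 CPM and the rest lower, so the sums mostly follow Kl. Endothelial markers were at 239 to 265 CPM against 286 to 453 CPM in EZ at day 3, and 3 of 7 (Cldn5, Pecam1 and Cdh5) rose at days 3 and 7. Meningeal and fibroblast markers were at 27.5 to 50.3 CPM in saline and 59.9 to 283 CPM in kainate EZ at day 3, and 4 of the 6 rose. At day 7 the same 4 (Col1a1, Col1a2, Dcn and Lum) rose and Ogn fell, with sums of 249 and 196 CPM in mice 21 and 35 and of 46.4 and 36.1 CPM in mice 26 and 23, against 22.1 to 32.6 CPM in saline. The single markers named here were chosen after their values were seen. Whether any of these cells contributed to the differences in the cytokine genes was not tested.

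Across the 48 libraries the levels of 9 of the genes rose and fell together, as a description over libraries that share mice and treatment groups. Pearson's r of log2 CPM was 0.984 between Tnfrsf1a and Osmr, 0.98 between Tnfrsf1a and Tnfrsf1b and 0.962 between Tnfrsf1a and Socs3. It was lower for the low-count ligands, 0.769 between Il1a and Il1b, and Il1r1 reached no more than 0.331 with any of the others. Of all genes tested, the 3 most alike to Il1a were Selplg, Sall1 and Cd33 (r = 0.936, 0.930 and 0.928). Those most alike to Tnfrsf1a were Pros1, Clic1 and Cd63 (0.993, 0.992 and 0.992), to Tnfrsf1b Itgb5, Ppp1r18 and Arhgap30 (0.990, 0.990 and 0.989), and to Osmr S1pr3, Ggta1 and Tnfrsf1a (0.986, 0.984 and 0.984). For Socs3 they were Ifi30, Glipr2 and Bcl3 (0.975, 0.971 and 0.9697) and for Lif Hbegf, Ptgfrn and Rhbdf1 (0.955, 0.954 and 0.951). Il1rn was most like Slfn10, Lgals9 and Grn (0.971, 0.968 and 0.964), Tnf like Tmed10, Gla and Erap1 (0.943, 0.942 and 0.941) and Il1b like Oasl1, Slc15a3 and H2-T7 (0.905, 0.902 and 0.898). Il1r1 was closest to Npnt, Fam114a2 and Mfap3, at 0.863, 0.852 and 0.840.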

How the data were processed

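RNA of the dorsal dentate gyrus was sequenced in 48 libraries, from EZ and PIZ of 24 mice, as paired-end stranded polyA libraries. Per the methods and the submitters' processing notes, the authors trimmed reads with fastp 0.20.1, aligned them with HISAT2 2.2.1 to GRCm39 and counted read pairs per Gencode M28 gene with featureCounts (Subread 1.6.4), on the reverse strand, with multi-mapping and multi-overlapping reads admitted by their primary alignment and largest overlap. They deposited raw counts per gene, which were used here, and ran their own tests with DESeq2 1.32.0 in R 4.1.1. The members and the gene lists were chosen with earlier results of these data known, so counts over a list are descriptions.

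Identifiers were named from Gencode M39 (98.90% of 55357 matched). Counts were filtered with filterByExpr over the 12 groups (21390 genes), scaled by TMM and fitted with edgeR 4.0.16 (limma 3.58.1, R 4.3.3) as 12 group means over all 48 libraries, and 17 comparisons were tested with the quasi-likelihood test. Calls required p below 0.01 after Benjamini-Hochberg adjustment and more than a 1.5-fold difference. SE was the log2 fold change divided by the square root of F. Log2 CPM used a prior count of 2. Counting intervals (95%, exact binomial) and the floor of 3 reads over a group cover counting error only. The 10 members were named in full, and other genes from pathway lists by role; results of some single genes of the lists are not reported here, though the list counts and sums include them. The genes most alike were the 3 with the highest Pearson's r over 48 libraries. Tested on simulated data over 21390 genes for kainate against saline in EZ at day 3, 85 of 99 genes changed 4-fold, 51 of 97 changed 2-fold and 0 of 20768 unchanged genes were called.

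EZ and PIZ libraries with the same mouse number come from the same mouse. Their deviations from the group means correlated at -0.054 to 0.376, over 0.1 in 20 of 24 mice. No 2 libraries of a group were identical (0 of 72 pairs). Alternatives were DESeq2 1.42.0, RLE or library size scaling, a count filter that was absent or demanded 10 reads throughout, a looser threshold of 0.05, a fit of the compared groups alone, a term for mouse (block), and leaving out mice in turn. All columns of the table were mapped to a sample.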

Additional observations from a re-analysis of the deposited data

Results flagged for a closer look

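Within groups of 4 mice, a mouse was marked where its gap to the nearest other mouse, as a share of the range of the group, exceeded Dixon's 95% critical value. Of 117 sets of 4 values, 7 were marked, where chance alone gives 5.85 (1 in 20). Mouse 27 was the mouse that stood apart in 3 of them, as the highest kainate mouse of day 14 for Socs3 in EZ (0.852), Tnf in EZ (0.858) and Osmr in PIZ (0.923). Saline mouse 39 was low for Il1r1 in PIZ at day 14 (0.888, at 13.5 CPM against 30.3 to 33.5 CPM). In the same library granule cell markers summed to 687 CPM against 1475 to 1512 CPM in the other 3, and meningeal and fibroblast markers to 89.4 CPM against 30.4 to 50.7 CPM, and their part in the Il1r1 value was not tested. The other marks rested on single reads. Il1rn had 1 read in EZ of saline mouse 39 and 1 in PIZ of saline mouse 24 at day 14, against 0 in the other mice (a gap of 1 in both), and Tnf had 0 reads in PIZ of saline mouse 20 at day 7 against 1 in each other mouse (0.963).

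The kainate effect differed between EZ and PIZ at day 7 by the test of the difference for Socs3 (4.09), Tnfrsf1b (2.41), Tnfrsf1a (2.35) and Osmr (2.27), all on the log2 scale and all larger in EZ. The causes of these differences and marks were not tested.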

How the results depend on the processing

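RLE scaling, library size alone and no filter kept each count of called members within 1.5 times its value. Requiring 10 counts in every library left 5 of the 10 genes to test and 4 called in EZ at day 3, 4 in EZ at day 7 and 4 in PIZ at day 3. With an adjusted p under 0.05, 9 genes were called in EZ at day 14, 7 for the EZ and PIZ difference at day 7 and 2 for day 14 against day 7 in EZ. Fitting the compared groups alone gave 7 in EZ at day 3 (Il1b lost), 0 in EZ at day 14, 1 in PIZ at day 7 (Osmr) and 3 for day 7 against day 3 in PIZ. DESeq2 called 6 in EZ at day 14. Leaving out each mouse gave 0 to 8 calls in EZ at day 14 (0 without mouse 27), 4 to 6 in PIZ at day 3 (4 without mouse 18), 0 to 6 for the EZ and PIZ difference at day 7 and 0 to 5 for day 14 against day 7 in EZ, and 7 to 8 in EZ at day 3. In EZ at day 7 there were 9 in each case. Leaving out mouse 27 for the pathway and marker lists was added after seeing the data. The causes were not tested. Apart from the block and EZ at day 14 without mouse 27, the share of all genes called was not counted under these alternatives. With mouse as a replicate block, 0, 6 and 0 genes were called for the EZ and PIZ difference at days 3, 7 and 14, and 0 on each day between the saline sides. Of 858 values of single genes, 801 kept their side of the threshold, 37 lost it, 20 gained it and 0 called values changed sign. Il1b, Il1rn and Tnf are limited by depth, with at most 11 reads in any saline library, and 4 mice a group limit all tests.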
